A study of Rattus norvegicus with 6 samples.

Results

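The genes Il34, Csf1 and Csf1r, 3 of the 17388 genes counted, were followed in single colon nuclei of rats that the authors deposited as T cells or as enterocytes. They were selected on measured values. Il34 had the largest pooled fall against placebo among the T cell counts, and Csf1 and Csf1r were taken with it as its fellow ligand and their shared receptor. All values against placebo in the T cell nuclei are therefore given as a description, without a test. Colons of male, wild-type Wistar rats were flash-frozen and their nuclei sequenced. For 3 days, the rats later given placebo or PL8177 had 5% dextran sulfate sodium (DSS), which injures the colon epithelium, in their water. Capsules followed, 2 times a day for 4 days, without drug in placebo rats or with 50 µg PL8177, an agonist of the melanocortin 1 receptor. Sham rats drank water without DSS. Each treatment had 3 rats, told apart by the tag that opens each nucleus's name, and the labels do not list the rats.

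IL-34 and CSF-1 are the ligands of CSF1R, a receptor tyrosine kinase carried mainly by monocytes, macrophages and other mononuclear phagocytes. Signalling through CSF1R keeps these cells alive and lets them divide, and gut macrophages depend on it. IL-34 is best known from keratinocytes and neurons, where it maintains Langerhans cells and microglia, and CSF-1 is made by many stromal cells.

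The T cell counts held 1018 nuclei, 19 to 685 per rat, and the enterocyte counts held 8782 nuclei, 304 to 1531 per rat. Each count is of unique molecular identifiers (UMIs), which stand for single captured RNA molecules. Totals ran from 8070 to 779009 UMIs per rat in T cells and from 310927 to 3995627 in enterocytes, with medians per nucleus of 364 to 2091 and 425 to 2283. No barcode was in both sets of 1 rat, 10 barcodes occurred in more than 1 rat, and no pair of rats shared more than 1.

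The T cell nuclei of the placebo rat GR23 stood apart from those of the other 8 rats. GR23 gave 685 of the 1018 nuclei, and its level of 14 T cell markers was 0.796 UMIs per 10000 UMIs, whereas the other rats had 11.6 to 26.5. Among those markers, 5 had no UMI in GR23, Cd3d and Cd3g of the T cell receptor complex among them. Its level of 15 enterocyte markers was 192.8 per 10000, above the 22.0 to 95.8 of the other rats and within the 161.4 to 422.9 of the enterocyte nuclei. Slc26a3, the chloride and bicarbonate exchanger of colon enterocytes, had UMIs in 602 of the 685 GR23 nuclei. The markers thus went against the label of this rat's T cell nuclei. Most pooled comparisons between treatments in T cell nuclei, and most of those of nuclei with and without Csf1r, are given with and without them. Means over rats include them.

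Il34 in the T cell nuclei came almost wholly from GR23. The sham rats GR12, GR13 and GR15 had 0, 0 and 1 Il34 UMIs. The placebo rats GR22, GR23 and GR24 had 4, 265 and 3, and the PL8177 rats GR41, GR43 and GR44 had 0, 3 and 1. GR23 held 97.4% of the placebo Il34 UMIs with 85.7% of the placebo UMIs of all genes. Per 10000 UMIs, its Il34 level was 3.40 (95% Poisson interval 3.00 to 3.84), and the next highest rat, GR22, had 0.746 (0.203 to 1.91). The 0 UMIs of GR12, the deepest sham rat, allow a level of up to 0.128, and those of GR13, with 19 nuclei, allow up to 3.72. GR22 and GR24 lay near GR15, GR43 and GR44, between 0.381 and 0.746, and GR23 lay above the other 8 rats. Intervals and limits of single rats cover counting error only.

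Pooled over each treatment, sham T cell nuclei had 0.0124 times the placebo Il34 level (interval 3.13e-04 to 0.0697, 1 against 272 UMIs). PL8177 nuclei had 0.127 times that level (0.0344 to 0.330, 4 against 272 UMIs). Without GR23, placebo kept 7 Il34 UMIs. The sham ratio was then 0.0687 (0.00152 to 0.535), and the PL8177 ratio was 0.705 (0.151 to 2.77). These intervals cover the counting of pooled UMIs and not the spread between rats. As means over rats, Il34 was 0.127 ± 0.220 per 10000 in sham, 1.51 ± 1.64 in placebo and 0.328 ± 0.284 in PL8177 (SD, n = 3 rats each). The placebo SD was larger than its mean, and the placebo rats other than GR23 had 0.746 (GR22) and 0.396 (GR24).

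**Figure D1:**
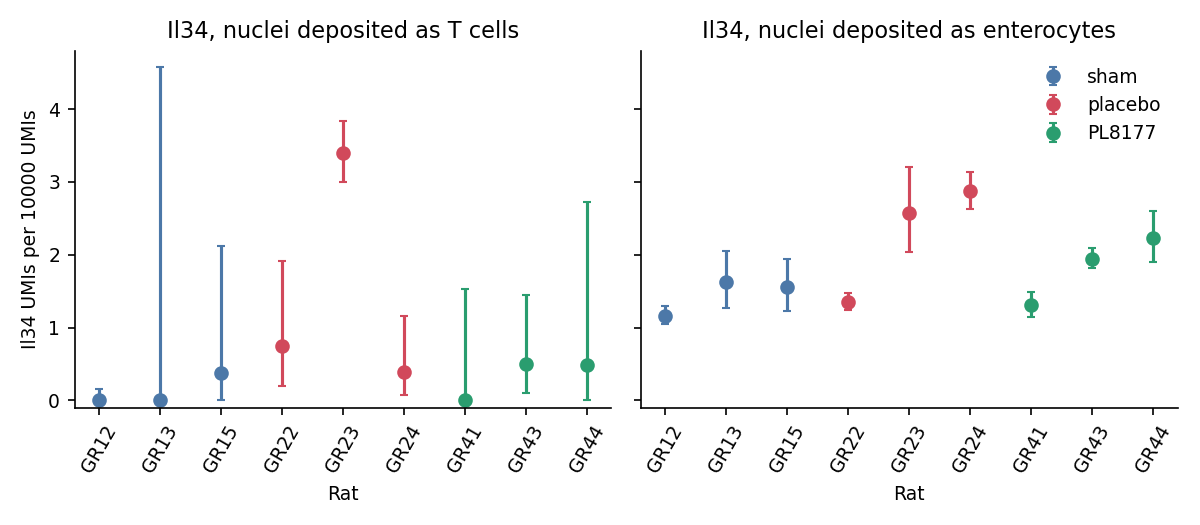
Il34 level in UMIs per 10000 UMIs for each rat in nuclei deposited as T cells (left) and as enterocytes (right), with exact 95% Poisson intervals and colours for treatments. On the left, GR23 at 3.40 lies above the other 8 rats, and on the right the levels of the treatments overlap.

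In GR23, the nuclei with Il34 were nuclei with enterocyte markers. Il34 was detected in 149 of the 685 nuclei (21.8%, exact binomial interval 18.7 to 25.0), with at most 15 UMIs in a nucleus. All 149 had an enterocyte marker UMI, at a level of 199.7 per 10000, and 9 of them had a T cell marker UMI. Of the 536 GR23 nuclei without Il34, 525 had an enterocyte marker UMI, at 189.0 per 10000, and 31 had a T cell marker UMI. Levels of other lists were lower or higher with Il34. T cell markers were at 0.503 with and 0.958 without, the 18 markers of mononuclear phagocytes at 3.60 and 4.41, smooth muscle markers at 1.22 and 3.13, and goblet cell markers at 4.78, from 11 nuclei, and 1.12. Nuclei with Il34 were deeper, with a median of 1280 UMIs against 668.5. Il34 stood at 3.92 per 10000 in the 40 GR23 nuclei with a T cell marker UMI and at 3.37 in the 645 without one.

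In the other 8 rats, 11 of 333 T cell nuclei had Il34, with 12 UMIs in all. Among the 204 of these nuclei with a T cell marker UMI, 8 had Il34 (3.92%, 1.71 to 7.58) at a median depth of 1001 UMIs. In enterocyte nuclei of similar median depth, 1051 UMIs, the share was 18.4% (17.6 to 19.2, 1612 of 8782 nuclei). The 3.92% is the share in nuclei with T cell markers and was not told apart from free RNA. Of the 11 nuclei, 10 had an enterocyte marker UMI, at 64.5 per 10000, as did 264 of the 322 without Il34, at 34.8 per 10000. The median depths were 2259 and 705.5 UMIs.

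Set against the enterocyte markers of the same nuclei, Il34 in the GR23 T cell set was close to that of the GR23 enterocytes. It was 17.6 per 1000 enterocyte marker UMIs (15.6 to 19.9, 265 UMIs) in the T cell set and 15.9 (12.6 to 19.8, 80 UMIs) in the enterocyte set. The ratio was 1.11 (0.859 to 1.44). Per UMI of all genes the ratio was 1.32 (1.03 to 1.72). In the other 8 rats together the T cell sets had 0.844 times the enterocyte level of Il34 per enterocyte marker UMI (0.436 to 1.48), but 0.142 times it per UMI (0.0734 to 0.249). With each nucleus thinned to 300 UMIs, Il34 was detected in 9.06% of GR23 T cell nuclei (6.97 to 11.5) and in 4.87% of GR23 enterocyte nuclei (2.62 to 8.18). The scale by enterocyte markers was added after the data were seen, and the part that enterocyte nuclei or their free RNA play in the T cell sets was not tested.

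**Figure D2:**
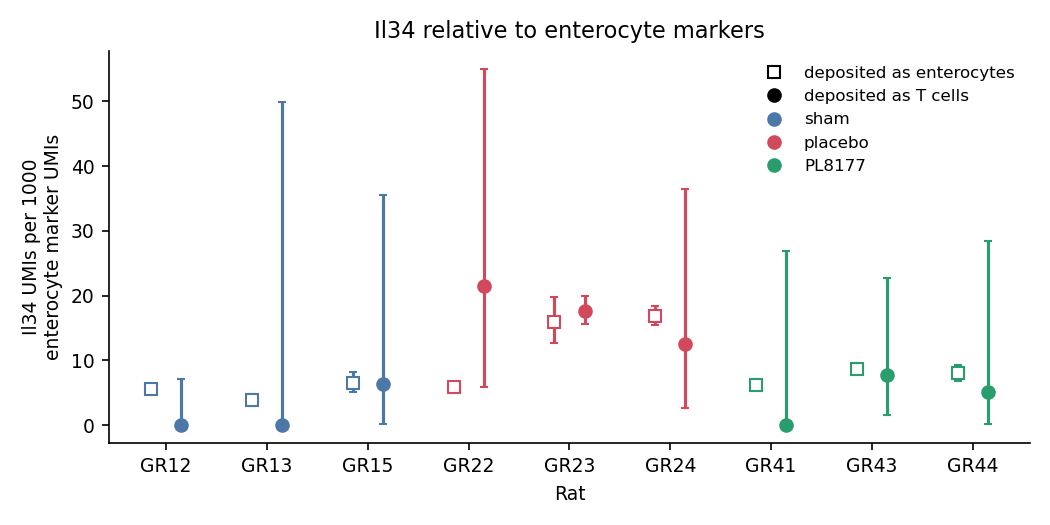
Il34 UMIs per 1000 UMIs of 15 enterocyte markers for each rat, with open squares for nuclei deposited as enterocytes, filled circles for those deposited as T cells, and exact 95% Poisson intervals. In GR23 the values are 15.9 and 17.6, and the intervals of most other T cell sets are wide because they hold 0 to 4 Il34 UMIs.

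In enterocytes, Il34 was detected in every rat, and its level did not separate the treatments. The sham rats GR12, GR13 and GR15 had 1.17, 1.62 and 1.55 UMIs per 10000. The placebo rats GR22, GR23 and GR24 had 1.35, 2.57 and 2.87, and the PL8177 rats GR41, GR43 and GR44 had 1.31, 1.95 and 2.23. GR22 lay within the sham range, and the groups overlapped in all 3 comparisons. Among the 9989 genes with at least 50 UMIs, 19.6% had groups that did not overlap for sham against placebo, 18.6% for PL8177 against placebo and 11.8% for PL8177 against sham.

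The mean Il34 levels were 1.45 ± 0.246 in sham, 2.26 ± 0.805 in placebo and 1.83 ± 0.472 in PL8177 (SD, n = 3 rats each). The differences were -0.818 for sham minus placebo (exact two-sided permutation p = 0.3), -0.436 for PL8177 minus placebo (p = 0.4) and 0.381 for PL8177 minus sham (p = 0.3), where 3 against 3 rats cannot go below 0.1. Over both sets of nuclei the order of the means was enterocytes of placebo, PL8177, T cells of placebo, enterocytes of sham, then T cells of PL8177 and of sham. No neighbours in that order differed by more than the larger of their SDs, except that sham enterocytes stood above PL8177 T cells. The place of placebo T cells rests on GR23, at 3.40. The T cells of GR22 and GR24, at 0.746 and 0.396, lay below the enterocytes of every sham rat, the lowest at 1.17.

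In edgeR's quasi-likelihood test with Benjamini-Hochberg adjustment, the log2 fold change of Il34 was -0.48 ± 0.328 (SE) for sham against placebo, with a 95% interval of -1.19 to 0.23 and an adjusted p of 0.554. For PL8177 against placebo it was -0.13 ± 0.321 (-0.82 to 0.57, adjusted p = 0.939), and for PL8177 against sham it was 0.35 ± 0.326 (-0.36 to 1.06, adjusted p = 0.861). A sham level at 0.5 times that of placebo lay inside the first interval, as did equal levels. Of 9424 genes tested, 0 (0%) were called by edgeR in each of the 3 comparisons where a call needed an adjusted p under 0.05 and a log2 fold change beyond 0.5 in either direction. At an unadjusted p below 0.05 these were 12.4% of genes for sham against placebo, 9.24% for PL8177 against placebo and 6.59% for PL8177 against sham. Il34, with unadjusted edgeR values of 0.169, 0.693 and 0.305, was not among them. DESeq2 called 107, 63 and 4 genes in these comparisons, and Il34 was not called.

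The direction for sham against placebo was the same in all 14 other settings, between -0.76 without GR22 and -0.20 with thinned nuclei. Without GR22, the lowest placebo rat, the unadjusted edgeR value was 0.0303 and the adjusted p was 0.389. Without GR24, the highest, the log2 fold change was -0.21, the unadjusted value 0.585 and the adjusted p 0.900. For PL8177 against placebo, 11 of the 14 settings gave a value below 0 and 3 a value above it.

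**Figure D3:**
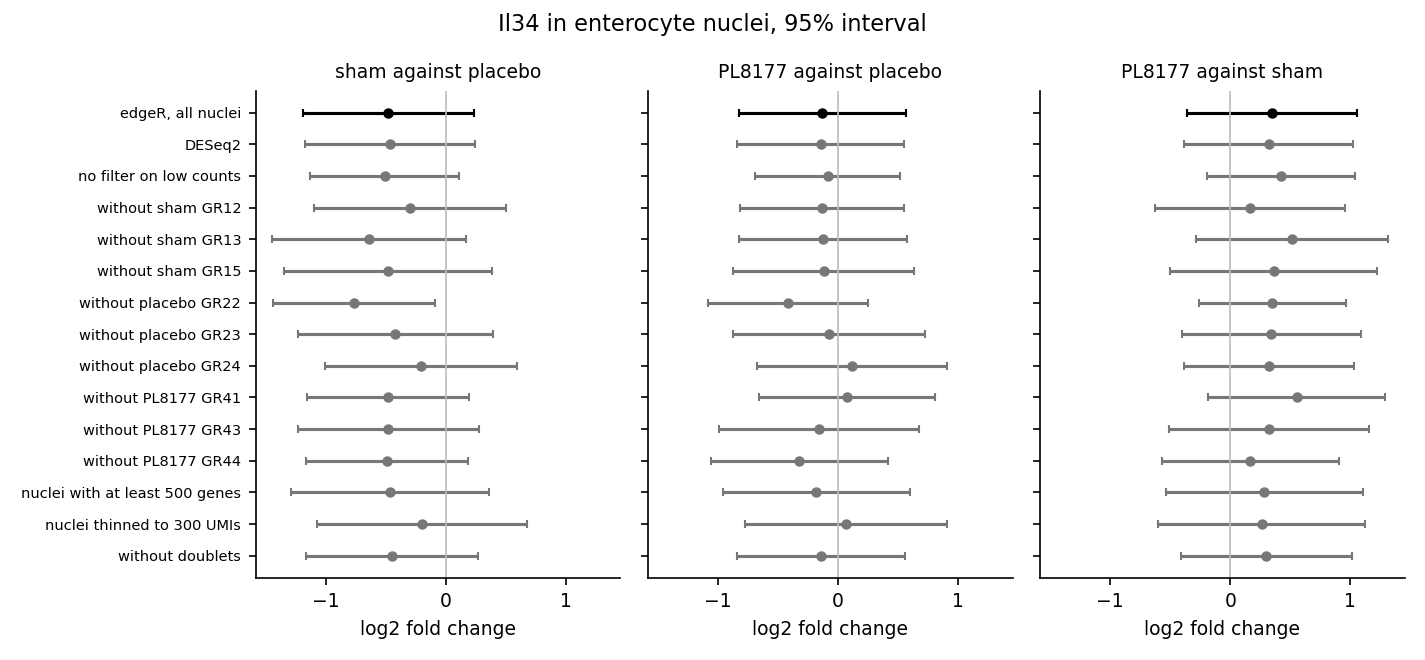
Log2 fold change of Il34 in enterocyte nuclei with its 95% interval for the 3 comparisons, by edgeR on all nuclei (black) and in 14 other settings (grey). The intervals include 0 everywhere but for sham against placebo without GR22.

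The share of enterocyte nuclei with an Il34 UMI was low in the shallow rats but did not follow depth throughout. It ran from 7.50% in GR13, with a median of 425 UMIs per nucleus, to 26.3% in GR43, with a median of 1858, and GR12, with the highest median of 2283, had 22.2%. With nuclei thinned to 300 UMIs it ran from 2.55% in GR41 to 6.90% in GR44, and the means were 3.99 ± 0.787% in sham, 4.80 ± 2.03% in placebo and 4.82 ± 2.18% in PL8177 (SD, n = 3). Thinning left out 275 sham, 125 placebo and 238 PL8177 enterocyte nuclei. Of the 1612 enterocyte nuclei with Il34, 1032 had 1 UMI and 259 had 3 or more. The 162 nuclei with the most Il34 held 29.0% of its UMIs, so the signal was spread over many nuclei.

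Nuclei with and without Il34 were then compared within the enterocytes of each rat, thinned to 300 UMIs, a comparison added after the data were seen. The lists named here were chosen with earlier results of these data known. Levels of the TNF and NF-kB response genes, which inflammatory signals induce, were 12.3 ± 6.26 per 10000 in nuclei with Il34 and 7.90 ± 1.25 in those without (SD, n = 9 rats). They were higher with Il34 in 8 of 9 rats, GR12 being the exception, with 3.45 against 6.65. GR43 had nearly equal levels, 8.22 against 8.21, and GR13 had 7.53 against 7.17. The widest gap was in GR23, 25.6 against 6.69, from 3900 UMIs of all genes with Il34. Birc3 made up much of the list, at 4.64 of 7.85 per 10000 in all enterocyte nuclei of GR12 and 7.59 of 11.6 in those of GR23. Of this list, 3 genes could be tested in the edgeR fit given below, and none was called. Mononuclear phagocyte markers were at 4.46 ± 1.59 and 2.64 ± 0.486, higher with Il34 in 9 of 9 rats. That difference lay in Mertk, Mrc1 and Cd14, which had 3552, 1166 and 212 UMIs in all enterocyte nuclei and together stood at 4.30 ± 1.52 and 2.45 ± 0.507. The 15 other markers were at 0.163 ± 0.366 and 0.192 ± 0.181, higher with Il34 in 2 of 9 rats. Enterocyte markers were at 239.8 ± 88.6 and 219.6 ± 99.9, higher with Il34 in 8 of 9 rats, and CSF1R signalling genes were at 24.9 ± 4.74 and 26.8 ± 2.58, higher in 3 of 9. Lists at low levels went both ways. Goblet cell markers were at 1.55 ± 1.71 and 2.75 ± 1.09, smooth muscle markers at 1.54 ± 1.35 and 2.37 ± 0.874, fibroblast markers at 0.710 ± 0.480 and 0.408 ± 0.207, and T cell markers at 0.0436 ± 0.131 and 0.571 ± 0.411. After thinning, 366 nuclei had an Il34 UMI and 7778 had none. Those with Il34 held 3900 to 25500 UMIs per rat, so the low lists rest on few UMIs, and none of these list levels was tested. In edgeR with the rat as a block, 7 of 2443 genes (0.287%) were called, all lower in nuclei with Il34. With nuclei thinned to 600 UMIs 7 were called, 4 higher and 3 lower, with 1 gene in common, and without thinning 1076 were higher and 903 lower. With another draw of the thinning 0 were called by edgeR, with 239 genes at an unadjusted p below 0.05, and DESeq2 called 0 with 124, so no gene is named from this comparison.

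**Figure D4:**
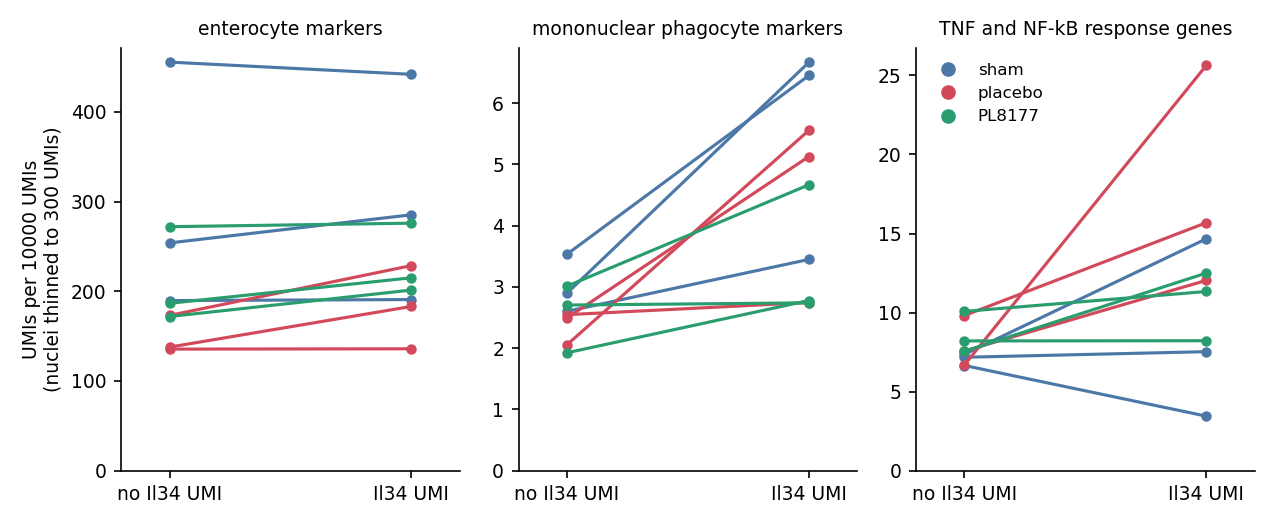
Summed level of 3 gene lists in UMIs per 10000 UMIs in enterocyte nuclei without and with an Il34 UMI, each line 1 rat coloured by treatment, nuclei thinned to 300 UMIs. TNF and NF-kB response genes and enterocyte markers are higher with Il34 in 8 of 9 rats, and the 18 mononuclear phagocyte markers in 9, but the 15 of them that are rare in enterocyte nuclei in 2.

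The genes whose levels over the 18 sums of rat and cell type were most like those of Il34 were Nuak2, a kinase related to AMPK (Pearson r = 0.95 of log2 levels), Bcar1, an adaptor of focal adhesions (0.93), Igsf9 (0.92), Chmp2b, a subunit of the ESCRT-III complex (0.90), and Mall (0.90). These sums share libraries, depth and the gap between enterocyte and T cell sets, and 3 of them hold no Il34. Over the 9 enterocyte sums alone the order began with Erlin2 (0.95), Birc3 (0.94) and Arglu1 (0.93). Birc3, an inhibitor of cell death that NF-kB induces, stood at 4.64, 4.59 and 5.22 per 10000 in GR12, GR13 and GR15. It stood at 4.62, 7.59 and 8.10 in GR22, GR23 and GR24, and at 4.92, 5.37 and 6.56 in GR41, GR43 and GR44. As for Il34, GR22 lay with the sham rats and GR23 and GR24 above the other rats. Birc3 was picked for its likeness to Il34 over these sums, so the shared order is no separate result.

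Csf1, the other ligand, was near the limit of detection. In the T cell nuclei it had 5 UMIs in 5 nuclei, all of GR23, and 0 in the other 8 rats. The 0 UMIs of sham and of PL8177 allow levels of up to 0.111 and 0.286 per 10000, above the pooled placebo level of 0.0550. In enterocytes it had 22 UMIs in 22 of 8782 nuclei (0.251%, 0.157 to 0.379). Sham rats had 3, 0 and 0 UMIs, placebo rats 3, 2 and 7, and PL8177 rats 2, 3 and 2. The mean level was 0.00322 ± 0.00558 per 10000 in sham, 0.0377 ± 0.0284 in placebo and 0.0153 ± 0.0102 in PL8177 (SD, n = 3). The exact two-sided permutation p was 0.2 for sham against placebo, 0.3 for PL8177 against placebo and 0.2 for PL8177 against sham. Pooled over rats, sham had 0.363 times the placebo level (0.0657 to 1.34) and PL8177 0.526 times (0.176 to 1.45), counting error only. Without GR22 these were 0.167 (0.0291 to 0.671) and 0.243 (0.0769 to 0.733), from 9 placebo UMIs, and without GR24 they were 0.616 (0.0956 to 3.16) and 0.893 (0.244 to 3.57), from 5. Without GR12, sham had no Csf1 UMI. In 4 enterocyte nuclei both ligands were detected. Csf1 did not pass edgeR's filter on low counts in either set.

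Csf1r, the receptor, was found in few nuclei, and most of these carried genes of mononuclear phagocytes. In the T cell nuclei it had 58 UMIs in 24 of 1018 nuclei (2.36%, 1.52 to 3.49), and in enterocytes 7 UMIs in 7 of 8782 nuclei (0.0797%, 0.0321 to 0.164). The median depths of the sets were 742.5 and 1051 UMIs. In the T cell sets the sham rats GR12, GR13 and GR15 had 41, 0 and 2 UMIs, the placebo rats 1, 4 and 6, and the PL8177 rats 4, 0 and 0. GR12 held 95.3% of the sham UMIs of Csf1r and 87.3% of the sham UMIs of all genes, and the 4 UMIs of GR41 came from 1 nucleus. In enterocytes 0 to 2 UMIs were counted per rat.

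The share of T cell nuclei with Csf1r was 10.0% in sham (5.27 to 16.8, 12 of 120), 1.37% in placebo (0.687 to 2.44, 11 of 802) and 1.04% in PL8177 (0.0264 to 5.67, 1 of 96). These intervals cover the counting of pooled nuclei only, and 10 of the 12 sham nuclei were of GR12. As means over rats the shares were 6.97 ± 6.77% in sham, 3.67 ± 3.01% in placebo and 1.52 ± 2.62% in PL8177 (SD, n = 3), and the groups overlapped. Without GR23 the placebo share was 5.98% (2.44 to 11.9, 7 of 117). The sham nuclei were deeper, with a median of 1146.5 UMIs against 731 in placebo. Thinned to 300 UMIs, 1.85% of sham nuclei had Csf1r (0.225 to 6.53, 2 of 108), 0.792% of placebo nuclei (0.291 to 1.71, 6 of 758), and 4.67% of placebo nuclei without GR23 (1.53 to 10.6, 5 of 107), above sham. The pooled Csf1r level of sham was 13.2 times that of placebo, 4.82 times without GR12, 2.95 times without GR23 and 26.6 times without GR24. The value without GR12 rests on the 2 sham UMIs of GR15, and GR12 and GR23 were not left out together. With thinned nuclei the pooled level of sham, with GR23 kept in placebo, was 2.34 times (0.231 to 13.1, 2 against 6 UMIs). As means over rats, Csf1r was 0.836 ± 0.875 per 10000 in sham, 0.343 ± 0.394 in placebo and 0.554 ± 0.960 in PL8177 (SD, n = 3), and the groups overlapped. In enterocytes the exact two-sided permutation p of Csf1r was 0.7 in the comparison of sham with placebo and 0.9 in both comparisons of PL8177, and Csf1r did not pass edgeR's filter in either set. For PL8177 against sham in T cell nuclei, edgeR called 0 of 1828 genes (0%), with 22 genes (1.2%) at an unadjusted p below 0.05, and DESeq2 called 0.

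Of the 24 T cell nuclei with Csf1r, 22 had a UMI of a mononuclear phagocyte marker. Since Mrc1, Mertk and Cd14 also had over 100 UMIs in enterocyte nuclei, the 15 other markers were used alone, and 20 of the 24 nuclei had a UMI of these, 16 of them 2 or more. Csf1r was thus found in 20 of the 92 T cell nuclei with a UMI of the 15 markers (21.7%, 13.8 to 31.6) and in 4 of the 926 without one (0.432%, 0.118 to 1.10), at median depths of 981.5 and 729 UMIs. Without GR23 these were 18 of 62 (29.0%, 18.2 to 41.9) and 2 of 271 (0.738%, 0.0895 to 2.64). A T cell marker UMI was present in 6 of the 24, and a B cell marker UMI in 6 of the 24 and 53 of the 994 others. B cell markers were at 7.27 per 10000 with Csf1r and 1.01 without, or 8.19 and 2.22 without GR23. Fibroblast markers were at 1.35 and 0.563, and endothelial markers at 1.08 and 0.207. Lower with Csf1r were T cell markers, at 1.89 and 9.89, enterocyte markers, at 29.0 and 138.2, and smooth muscle markers, at 1.21 and 2.38. Whether these nuclei were mixed was not tested. Of all 18 markers, 15 had a higher level with Csf1r than without and 3 a lower one, both with and without GR23. Those lower were Cd68, Cd14 and Fcgr1a, with no UMI in the nuclei with Csf1r. Markers named for a high level in these nuclei included Mertk, a receptor for uptake of dying cells, Lyz2, the macrophage lysozyme, and C1qc and C1qa of complement. Mertk was in 12 of the 24 nuclei and in 139 of the 994 others, or in 11 of 20 and 30 of 313 without GR23. Lyz2 was in 5 of the 24 nuclei and in 5 of the 994 others, C1qc in 8 and 15, and C1qa in 9 and 20. Without GR23, in 20 and 313 nuclei, Lyz2 was in 5 and 5, C1qc in 8 and 14, and C1qa in 8 and 14. The summed level of all 18 phagocyte markers ran from 1.24 to 10.8 per 10000 over the T cell sets of the 9 rats and from 2.67 to 4.23 over the enterocyte sets, and its part in the Csf1r values was not tested.

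The 3 nuclei with 10 or more Csf1r UMIs were all of GR12. They held 32 of the 58 UMIs, at depths of 4228 to 12977 UMIs. With 11, 11 and 10 Csf1r UMIs, they had 16, 9 and 36 UMIs of the 15 phagocyte markers and 2, 0 and 5 UMIs of T cell markers. None of the 24 nuclei was called a doublet. No nucleus of either set had both Il34 and Csf1r. With 24 and 7 nuclei that had Csf1r, few such nuclei could have been counted, and whether 0 is fewer than chance gives was not tested. Of the 149 GR23 nuclei with Il34, 4 had a UMI of the 15 phagocyte markers, as did 26 of the 536 without.

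**Figure D5:**
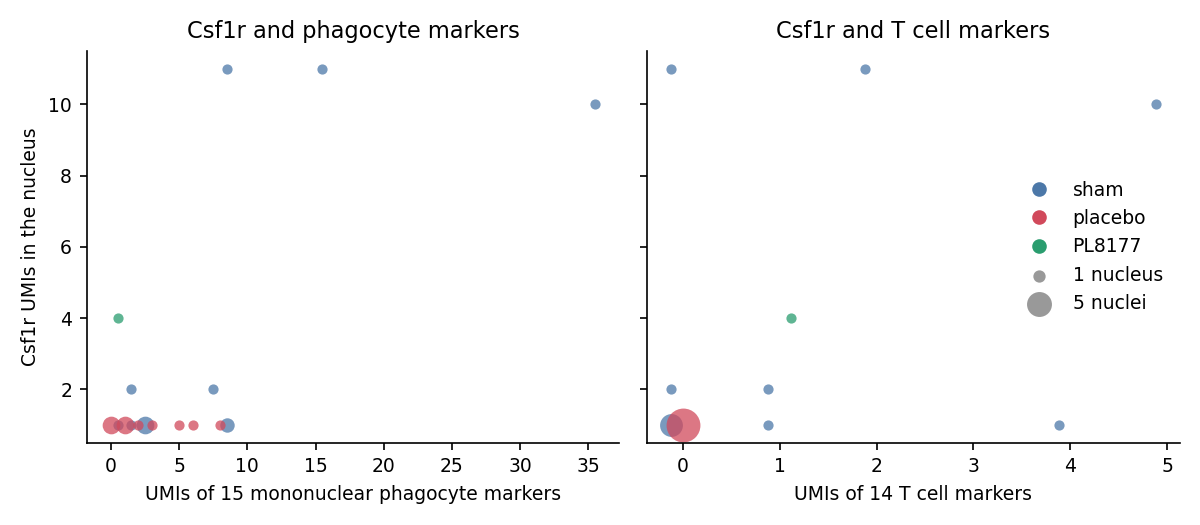
Csf1r UMIs of the 24 nuclei deposited as T cells that had any, against their UMIs of 15 mononuclear phagocyte markers (left) and of 14 T cell markers (right), with area for the number of nuclei, colours for treatments and treatments shifted slightly sideways. The 3 nuclei with 10 or 11 Csf1r UMIs have 9 to 36 phagocyte marker UMIs and 0 to 5 T cell marker UMIs.

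Genes that pass on the signal of CSF1R, and transcription factors of myeloid cells, were compared between nuclei with and without Csf1r. Of 24 signalling genes, 20 had a higher level in the 24 nuclei with Csf1r than in the 994 without, of which 681 were of GR23, and 9 of 12 transcription factors did. Without GR23, in 20 nuclei against 313, these were 16 of 24 and 7 of 12. Among genes with at least 50 UMIs in these nuclei, 84.2% of 19 signalling genes and 48.8% of all 4818 genes were higher with Csf1r. Without GR23 these were 66.7% of 18 and 41.2% of 2810. For the transcription factors they were 4 of 7, and 2 of 5 without GR23, near the shares of all genes. The genes given next were chosen for a high level in a class of nuclei, which favours such a difference. Zeb2, a transcription factor of macrophages and other cells, was in 19 of the 24 nuclei with Csf1r and in 52 of the 994 without, at 27.2 and 1.15 per 10000, or 30.0 and 2.17 without GR23. Lyn, a Src family kinase, was in 17 of the 24 and in 233 of the 994, at 11.5 and 3.84 per 10000, or 12.4 and 4.91 without GR23. Gab2, an adaptor of receptor kinases, was at 7.41 and 2.62 per 10000, or 7.89 and 2.60 without GR23. Spi1, the PU.1 factor that activates Csf1r, was at 1.48 and 0.0331, and without GR23 it was in 5 of the 20 nuclei and in 0 of the 313. Nuclei with Csf1r were deeper, with a median of 1339.5 UMIs against 733. Over the 18 sums, the genes most like Csf1r were Trps1 (Pearson r = 0.90), Ripor2 (0.89), Nfkb1 (0.89), Lmnb1 (0.86) and Runx1 (0.85), with 6 sums at 0. For Csf1, at 0 in 10 of the sums, they were AABR07013653.1 (0.79), Tmem72 (0.77), Bmp3 (0.76), Tfdp2 (0.76) and AABR07012065.3 (0.75).

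In enterocytes, 20 of the 24 genes of CSF1R signalling could be tested, and edgeR called none of them in the 3 comparisons. At an unadjusted p below 0.05, 4 of the 20 differed for sham against placebo, where the background was 12.4%. These were the adaptor Grb2 (log2 fold change 0.60), the transcription factor Stat3 (0.55) and the ubiquitin ligase Cbl (0.51), with higher values in sham, and the kinase Syk (-1.14), with a lower one. The median log2 fold change of the 20 was 0.24, and that of all genes tested was -0.02. For PL8177 against placebo, where the background was 9.24%, 2 of the 20 had such a p, Shc1 and Stat3, both with higher values in PL8177. For PL8177 against sham, where it was 6.59%, Pik3ca had a lower and Syk a higher value in PL8177. Of the TNF and NF-kB response genes, 10 could be tested, none was called, and their median was -0.21 for sham against placebo, 0.14 for PL8177 against placebo and 0.32 for PL8177 against sham. At an unadjusted p below 0.05, Relb (log2 fold change 0.67) and the chemokine gene Ccl20 (-3.02) differed for sham against placebo, no gene of this list for PL8177 against placebo, and Nfkbia (0.82) and Ccl20 (2.50) for PL8177 against sham.

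Of the 18 growth factors and receptors related to these genes, 4 could be tested in enterocytes, and edgeR called none of them. Kitlg encodes stem cell factor, the ligand of KIT, a receptor of the same family as CSF1R. Its level was 1.41, 1.23 and 1.47 per 10000 in the sham rats GR12, GR13 and GR15, and 2.53, 2.77 and 5.04 in the placebo rats GR22, GR23 and GR24. The PL8177 rats GR41, GR43 and GR44 had 1.30, 1.42 and 0.860. Every placebo rat lay above every sham and PL8177 rat. Of the 9989 genes with at least 50 UMIs, groups did not overlap in 19.6% against sham and 18.6% against PL8177. The log2 fold change was -1.18 ± 0.295 (SE) for sham against placebo, with an adjusted p of 0.195 in edgeR, and -1.37 ± 0.291 for PL8177 against placebo, with an adjusted p of 0.239. DESeq2 called both, with adjusted p of 0.0303 and 0.00742. Neither passed the threshold in any other of the 14 settings, where the values stayed below 0. For PL8177 against sham Kitlg had -0.19 ± 0.294 (adjusted p = 0.931).

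The other receptors described for IL-34 were the proteoglycan Sdc1 and the phosphatase Ptprz1. Sdc1 had 1.19, 0.389 and 0.684 per 10000 in the sham enterocytes of GR12, GR13 and GR15, 1.12, 0.482 and 0.579 in the placebo rats and 1.35, 1.02 and 0.632 in the PL8177 rats, in the same order of rats as above. The groups overlapped, and the log2 fold change was 0.19 ± 0.402 (SE) for sham against placebo (edgeR, adjusted p = 0.875) and 0.57 ± 0.393 for PL8177 against placebo (adjusted p = 0.702). In the T cell nuclei Sdc1 had 3, 5 and 2 UMIs in the PL8177 rats GR41, GR43 and GR44. Those are 0.828 to 1.25 per 10000, in sets of 20462 to 60399 UMIs. There Sdc1 ran from 0 to 0.255 in sham rats, with 6, 0 and 0 UMIs, and from 0.186 to 0.372 in placebo rats, given without a test. The 0 UMIs of GR13 and GR15 allow levels of up to 3.72 and 1.14, above the PL8177 value of GR43 and of GR44. The share of all genes whose groups did not overlap was not counted in T cell nuclei. Ptprz1 had 1, 4 and 1 UMIs in the enterocytes of sham, placebo and PL8177, too few for a test.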

How the data were processed

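Per the labels and the study's methods, UMIs were counted by the authors for genes with their introns, on the rat genome Rnor 6.0, and removed empty droplets with CellBender. The submitters' processing notes name Cell Ranger 6.0.1 and Seurat 4.0.3. The values deposited are whole UMI counts without normalization, 1 table per treatment and cell type, and cell types are the authors'. Rats were told apart by the tag that opens a nucleus's name. The placebo T cell counts break off within a line, before all genes are listed, and the incomplete last line was dropped. Levels therefore use the 15108 of 17388 genes present in every set as the total.

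The members, gene lists, tests and alternatives were chosen with earlier results of these data known. Genes were named if they were members, if they belonged to a list and were among its 5 highest in a class of nuclei or were called, or if they were among the 5 most like a member by Pearson r of log2(level + 0.1) over genes with at least 200 UMIs. List genes with an unadjusted p below 0.05, the order within enterocytes and Sdc1, Ptprz1, Syk, Pik3ca and Shc1 were added after their values were seen. Some genes that the rule names are not reported here.

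Counts summed per rat and cell type were tested by quasi-likelihood with glmQLFTest of edgeR 4.0.16 under R 4.3.3 (TMM scaling, genes kept by filterByExpr, 1 fit of all 3 treatments, Benjamini-Hochberg over all genes), with thresholds of adjusted p 0.05 and absolute log2 fold change 0.5 in enterocytes and 1.5 in T cells, and in the comparison of nuclei with and without Il34 the adjusted p alone. SEs were taken from the fold change and the F statistic. DESeq2 1.42.0 was the alternative test. Both were tested on simulated data. Other steps used Python 3.11.15, numpy 2.4.6, scipy 1.17.1, pandas 2.3.3, scanpy 1.11.5 and matplotlib 3.10.9. Intervals are at 95%, and limits for 0 rest on 3 counts. Intervals of levels, shares and pooled ratios are exact. Those of log2 fold changes are approximate, from the SE with a t distribution in edgeR and a normal distribution in DESeq2. Scrublet, run in scanpy, called 78 of 9800 nuclei doublets (0.796%), 8 of them T cell nuclei of GR23. Doublets were kept, and left out as an alternative. Further alternatives were an unfiltered edgeR fit, leaving out each rat, keeping nuclei of 500 or more genes, thinning nuclei to 300 UMIs (which left out 12 sham, 44 placebo and 7 PL8177 T cell nuclei), keeping T cell nuclei with a T cell marker UMI, and means over rats. The values of nuclei with and without Csf1r without GR23, and their thinned shares, were added after the data were seen.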

Additional observations from a re-analysis of the deposited data

How the results depend on the processing

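Il34 in enterocytes was not called in any of 14 settings for any comparison. Its log2 fold change for PL8177 against placebo, -0.13 with all nuclei, was 0.065 with nuclei thinned to 300 UMIs and ranged from -0.41 to 0.12 with each rat left out, above 0 without GR24 or without GR41. The cause was not tested. The count of genes called in enterocytes, 0 by edgeR, was 107, 63 and 4 by DESeq2 for sham against placebo, PL8177 against placebo and PL8177 against sham. It was 51, 8 and 10 without a filter on low counts. It was 7 for sham against placebo with thinned nuclei. With each rat left out it ranged from 0 to 8 for sham against placebo (8 without GR44), from 0 to 2 for PL8177 against sham and, in T cell nuclei, from 0 to 1 (2 and 1 without GR23). The pooled Il34 level of T cell nuclei in sham, 0.0124 times that in placebo, was 0.106 times with thinned nuclei and 0.0839 times as a mean over rats, and ranged from 0.0115 to 0.0974 with each rat left out. It gives no ratio without GR15, when sham has no Il34 UMI. The PL8177 value, 0.127, ranged from 0.0750 to 0.705, the latter without GR23. In nuclei with a T cell marker UMI, the sham ratio was 0.0280 (1 against 23 UMIs) and the PL8177 ratio 0.170 (2 against 23 UMIs). Both ratios include GR23 and are not given without it. In GR23, 9 of the 149 nuclei with Il34 had a T cell marker UMI. In the other 8 rats, over all treatments, 8 of the 11 nuclei with Il34 had one. In nuclei with a T cell marker UMI, Csf1r had 25 UMIs in sham, 0 in placebo and 4 in PL8177. The sham UMIs were all of GR12, mostly from 2 nuclei with 11 and 10, and those of PL8177 were from 1 nucleus of GR41. In the comparison of enterocyte nuclei with and without Il34, 7 genes called became 0 with DESeq2 or another draw, 491 without a filter and 1979 without thinning, and 0 to 15 with each rat left out. Kitlg for PL8177 against sham was 0.048 with thinned nuclei. Csf1 and Csf1r could be fitted only without a filter, where neither was called.

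No paired analysis was possible because the labels and nucleus names carry no number that pairs rats of different treatments. Depth limits Csf1 and Csf1r, and in T cell nuclei all 3 genes, since 8 rats gave 19 to 91 nuclei each. Genes are counted with introns, and levels are not corrected for gene length, so differences are given between nuclei. The choice of the highest genes of a list rests on these uncorrected levels.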
